A study of Mus musculus with 6 samples.

Results

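Pax7, Myf5, Myod1, Myog, Msc, Cdh15, Asb5 and Fgfr4 are 8 genes of the muscle stem cell and myoblast identity, taken by name from the 16494 genes of a single-cell RNA-Seq (scRNA-Seq) table of lower abdominal muscle (LAM). They were followed across muscle stem cells (MuSCs), myonuclei and the other cell types of LAM, which were set from marker genes that include none of the 8. LAM came from 3 WT and 3 Aromhum male mice of the FVB/N strain, all 9 to 10 weeks old, with 1 library per mouse. Aromhum mice carry the human aromatase gene CYP19A1, whose product turns androgens into estrogens, and are labelled as having scrotal hernia, whereas the WT mice are labelled as controls. The tissue was minced, digested with collagenase II and Dispase II and passed through filters that hold back multinucleated fibers, so that myonuclei in these libraries are not a sample of the fibers, and what their barcodes hold was not tested. The transgene was read in the Aromhum libraries only, with 770, 797 and 787 CYP19A1 unique molecular identifiers (UMIs, each tagging 1 captured RNA molecule) while CYP19A1 is listed at 0 in each WT library.

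A 0 in these libraries is not always a count. Of the 16494 genes, 1071 to 1709 were listed at 0 in a given library, and 99% of the genes listed above 0 there were found in at least 20 to 26 of its barcodes, so that genes seen in fewer were mostly set to 0. Of the 8 genes, this touched Myog only. Myog was listed at 0 in the whole libraries of WT mice 1 and 3, against 37 barcodes with a Myog UMI in WT mouse 2 and 62, 59 and 30 in the Aromhum mice. The 0 of WT mice 1 and 3 was therefore not read as absence, and the order of WT and Aromhum mice in Myog rests on it. The other 7 genes were found in 54 or more barcodes of each library.

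Skeletal muscle is repaired by MuSCs, also called satellite cells, which lie quiescent along the fiber under the transcription factor PAX7. The study names Myf5, the gene of the myogenic regulatory factor MYF5, as a satellite cell marker. On activation the cells turn on MYOD1, a further myogenic regulatory factor, and become myoblasts. Myogenin (MYOG) then marks their exit from division into differentiation and fusion. Musculin (Msc) is a basic helix-loop-helix repressor of this family, Cdh15 encodes M-cadherin, which joins satellite cells to fibers, Asb5 encodes an ankyrin repeat and SOCS box protein found in satellite cells, and Fgfr4 encodes a fibroblast growth factor receptor of myoblasts.

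All 8 genes are protein coding, and by the GENCODE vM21 annotation of the mouse genome (build mm10) they lie at chr4:139737062-139833528 (Pax7, minus strand), chr10:107482908-107486134 (Myf5, minus), chr7:46376474-46379099 (Myod1, plus), chr1:134289989-134292548 (Myog, plus), chr1:14753346-14755992 (Msc, minus), chr8:122847966-122867397 (Cdh15, plus), chr8:54529580-54587842 (Asb5, plus) and chr13:55152640-55168759 (Fgfr4, plus). MYF5, MYOD1 and MYOG bind the E-box, here written CANNTG, which reads the same on both strands, and CAGCTG is one form of it. RefSeq promoter windows, from 250 bases before to 50 bases after the start of transcription on GRCm38.p6, were matched for 6 of the 8 genes, and those of Pax7, Myog and Cdh15 are shown because they span the range of E-box counts among the genes that mark the stem cell, the differentiating cell and its adhesion. E-boxes are in capitals.

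Pax7 (chr4:139832919-139833218, minus strand): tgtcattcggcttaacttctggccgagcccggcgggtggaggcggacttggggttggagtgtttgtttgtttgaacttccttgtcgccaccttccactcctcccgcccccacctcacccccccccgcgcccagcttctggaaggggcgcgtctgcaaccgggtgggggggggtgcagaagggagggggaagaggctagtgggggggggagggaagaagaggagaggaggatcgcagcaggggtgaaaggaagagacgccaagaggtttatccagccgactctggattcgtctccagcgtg

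Myog (chr1:134289754-134290053, plus strand): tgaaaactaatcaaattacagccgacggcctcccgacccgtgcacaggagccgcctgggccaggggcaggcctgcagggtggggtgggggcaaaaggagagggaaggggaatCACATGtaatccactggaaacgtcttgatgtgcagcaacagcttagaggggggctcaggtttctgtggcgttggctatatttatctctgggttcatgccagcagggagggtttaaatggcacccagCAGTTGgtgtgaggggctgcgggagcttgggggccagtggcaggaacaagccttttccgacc

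Cdh15 (chr8:122848124-122848423, plus strand): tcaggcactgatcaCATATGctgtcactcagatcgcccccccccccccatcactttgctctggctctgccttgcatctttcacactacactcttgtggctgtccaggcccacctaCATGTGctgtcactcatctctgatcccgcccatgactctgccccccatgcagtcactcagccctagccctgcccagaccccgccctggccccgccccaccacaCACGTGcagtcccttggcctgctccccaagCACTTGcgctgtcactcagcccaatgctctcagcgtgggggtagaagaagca

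The Pax7 window held 0 E-boxes, as did that of Myf5. The Myog window held 2, at 138 and 12 bases before the start, and the Cdh15 window held 4, at 236, 135, 32 and 2 bases before it. The Fgfr4 window held 2, and Asb5 had 3 windows with 2, 1 and 1. Of 32851 promoter windows of this length, 72.3% held at least 1 E-box, 39.6% at least 2 and 6.49% at least 4. These are matches of letters and say nothing about binding.

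MuSCs and myoblasts were found as 1 cluster of 2863 of 63647 barcodes (4.50%), named MuSC/myoblast-like from 9 detected markers, among them the satellite cell surface lectin Chodl, and led by Gal, P2ry14 and Arl4d. Its summed markers stood at 1336 to 1469 CPM (the UMIs of a gene in a sum, scaled to the same total in each mouse) in the WT mice and at 1238 to 1405 in the Aromhum mice. The cluster held 438 to 718 cells in a WT mouse and 335 to 566 in an Aromhum mouse, with a median of 3147 to 4833 UMIs per cell and 5.75% to 7.64% mitochondrial UMIs. A further cluster of 162 barcodes carried these markers together with at least 3 markers of another cell type in 50% of its cells or more, and was kept apart. Myonuclei-like cells, with fiber genes such as Acta1 and Ckm, numbered 2021. Whole libraries held 64958237 to 111826460 UMIs, and 471 barcode sequences occurred in more than 1 library, on 48 of the 2863 cells. Only 413 of the 2863 cells lay within the limits that the study set on genes, UMIs and mitochondrial share.

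Across the 11 cell types, each named by its likeness to marker genes, 7 of the 8 genes were highest in MuSC/myoblast-like cells (the heat map of levels by cell type). The mean level over 6 mice was 41.0 ± 11.5 CPM for Pax7, 109.8 ± 22.5 for Myf5, 684 ± 340 for Myod1, 294 ± 184 for Msc, 92.8 ± 28.7 for Cdh15, 1523 ± 661 for Asb5 and 96.9 ± 18.5 for Fgfr4 (SD). For each of these 7, the lowest mouse in this cluster lay above the highest mouse of the next cell type, with ratios of mean levels from 13.3 for Msc to 54.9 for Fgfr4. A level is compared here between cells and mice and not between genes. The next cell type was glial cells for Pax7, Myf5 and Fgfr4, myonuclei for Myod1, Cdh15 and Asb5, and fibroblasts for Msc, and in each case its range over mice overlapped that of the third.

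Myog and Msc departed from this pattern. In the 4 libraries that list it, Myog was at 20.99, 123, 131 and 26.3 CPM in myonuclei-like cells (WT mouse 2 and Aromhum mice 1 to 3) and at 13.5, 146, 49.4 and 54.9 CPM in MuSC/myoblast-like cells, higher in the first in 2 of the 4 mice. MuSC/myoblast-like cells held 41.7% of all Myog UMIs and 38.1% of all Msc UMIs, against 73.7% to 77.8% for the other 6 genes. Msc was also read in fibroblasts, at 22.0 ± 7.71 CPM (SD over 6 mice) and in 12.7% of their cells. Endothelial cells, set beside them as cells outside the muscle lineage, had a UMI of the 8 genes in 0.0122% (Myog) to 0.665% (Asb5) of cells, at a median of 3380 UMIs per cell against 4094 in MuSC/myoblast-like cells. Smooth muscle cells and pericytes had one in more cells, from 0.0162% (Myog) to 3.28% (Asb5), at a median of 5300 UMIs. Whether these UMIs were free RNA or the cells' own was not tested.

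**Figure D1:**
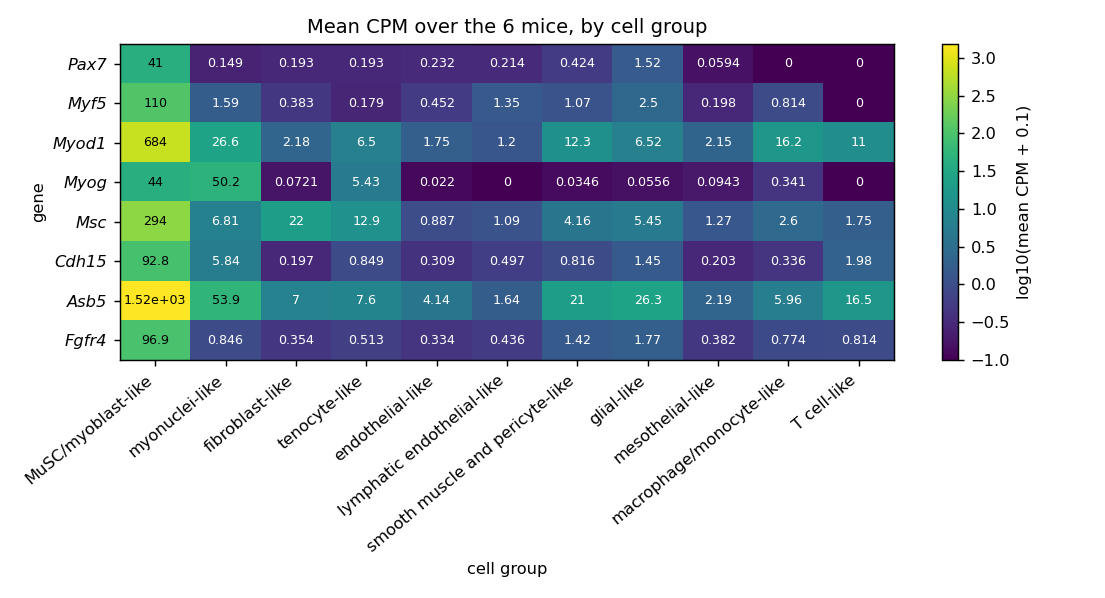
Mean CPM over mice of each of the 8 genes (rows) in each named cell type (columns), with the value printed in the cell and the color on a log scale. All rows but Myog peak in the MuSC/myoblast-like column, and Myog stands at 44.0 CPM there and at 50.2 CPM in myonuclei, means that take WT mice 1 and 3 as 0.

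MuSC/myoblast-like cells made up 4.62%, 6.64% and 5.54% of the barcodes of the WT mice and 2.79%, 4.11% and 3.74% of those of the Aromhum mice. The groups did not overlap, with means of 5.60% ± 1.01 and 3.55% ± 0.683 (SD, n = 3 mice each). The difference of -2.05 percentage points had p = 0.1 in a two-sided exact permutation test, the smallest value that 3 against 3 mice can give. Among barcodes within the study's limits the difference was -0.486 points (exact permutation p = 0.7). Fewer MuSC/myoblast-like cells and more of other cells cannot be told apart in a share.

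The question of whether the 8 genes differed between WT and Aromhum mice within these cells was addressed with UMIs summed per mouse (the plot of CPM per mouse). Myod1 and Msc were lower in Aromhum cells, whereas Pax7, Myf5, Cdh15, Asb5 and Fgfr4 did not pass the test. Myog passed with higher values in Aromhum cells, but only with the 0 of WT mice 1 and 3 taken as a count. In edgeR's quasi-likelihood test, 176 of 8070 genes had a Benjamini-Hochberg adjusted p below 0.05, 102 higher and 74 lower in Aromhum. That is 2.18% of the genes tested, beside 3 of the 8, or 2 without Myog. Of the 176, 3 were listed at 0 in a whole library (Myog, Actc1 and Arpp21), and 174 of 8065 genes passed, 2 of the other 7 among them, when only genes listed in every library were tested. Groups that did not overlap in CPM were seen for 4 of the 8, Myog with its 0s among them, beside 24.8% of all genes tested. All 8 passed the filter on low counts. With the replicate number as a block, 513 genes passed, and 4 of the 8.

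**Figure D2:**
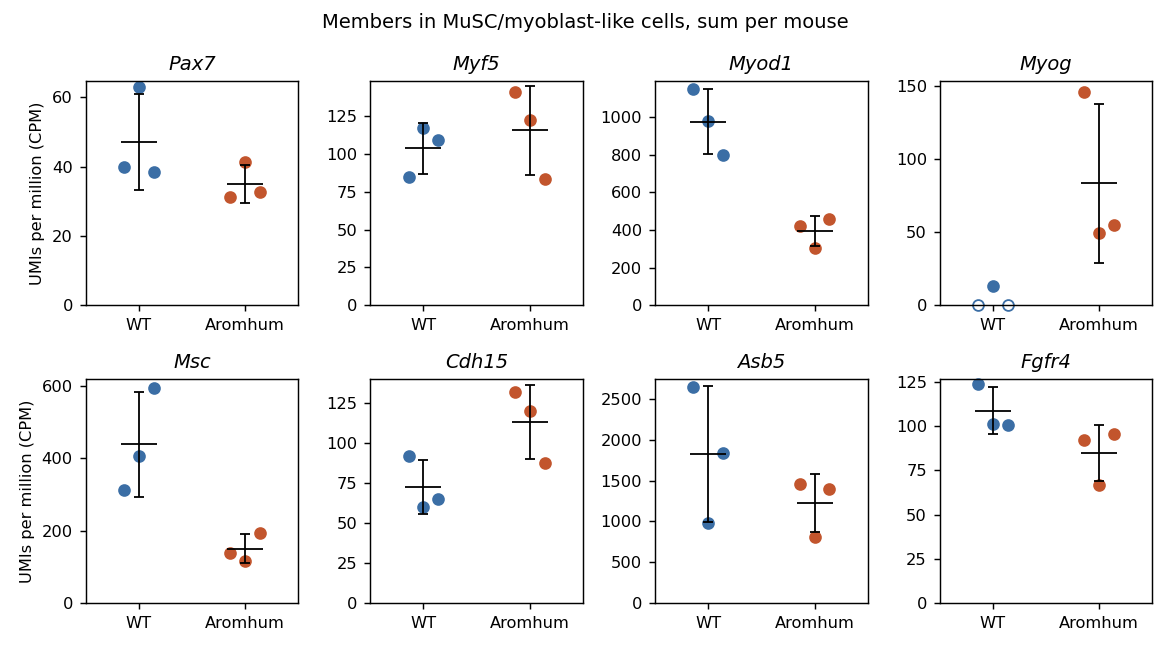
CPM of the 8 genes in MuSC/myoblast-like cells, 1 point per mouse, with the bar at the mean and the whiskers at the SD of the 3 mice of a group, on linear axes from 0. Myod1, Msc and Fgfr4 show no overlap between WT and Aromhum. The open Myog points are WT mice 1 and 3, where the gene is listed at 0, and no WT mean is drawn for it.

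Pax7, the factor that defines the satellite cell, was read at 39.7, 63.0 and 38.6 CPM in the WT mice and at 31.1, 41.2 and 32.7 CPM in the Aromhum mice. The second WT mouse was the highest and the groups overlapped, while the Aromhum mouse was lower in each of the 3 same-numbered pairs. The log2 fold change (Aromhum over WT) was -0.55 ± 0.22 (SE, edgeR adjusted p = 0.200), and -0.53 with the replicate number as a block (edgeR adjusted p = 0.104). Myf5, the first regulatory factor of the lineage, stood at 84.9, 117 and 109 CPM in WT and 141, 123 and 83.5 CPM in Aromhum mice. Both the highest and the lowest Myf5 value came from Aromhum mice, and the log2 fold change was 0.04 ± 0.19 (edgeR adjusted p = 0.937).

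Myod1, the regulator of activated myoblasts, was at 1146, 978 and 799 CPM in the WT mice and at 421, 306 and 458 CPM in the Aromhum mice. Every Aromhum mouse lay below every WT mouse, and the level fell by 1.39 ± 0.21 on the log2 scale (2.62-fold lower, edgeR adjusted p = 0.0287). Myod1 kept its direction in all 22 alternatives and its call in 17 of them. The alternative without marked doublets took no cell from this cluster, so it only repeats the main fit. Myod1 lost the call without WT mouse 2, WT mouse 3, Aromhum mouse 1 or Aromhum mouse 2 (edgeR adjusted p = 0.0677 to 0.133), and without a sub-cluster of matrix-rich cells described below (0.0610). In the runs without any of these mice, almost no gene of the whole fit passed.

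Msc, the repressor of the same protein family, stood at 313, 406 and 595 CPM in WT and at 138, 117 and 194 CPM in Aromhum mice. The groups did not overlap, and Msc fell by 1.64 ± 0.28 on the log2 scale (3.11-fold lower, edgeR adjusted p = 0.0287). Msc lost its call without each of the same 4 mice (edgeR adjusted p = 0.0919 to 0.156). In those runs almost no gene of the whole fit passed. Within the study's limits, Myod1 fell by 2.27 ± 0.34 (edgeR adjusted p = 0.0106) and Msc by 1.68 ± 0.43 (edgeR adjusted p = 0.0735), and the groups overlapped for Msc (177 CPM in WT mouse 1, 191 in Aromhum mouse 3). In these 413 cells the fibroblast markers summed to 492 to 792 CPM in WT and 1446 to 4139 CPM in Aromhum mice, the myonuclei markers to 134 to 251 and 80.2 to 121 CPM, and the dissociation stress genes to 7186 to 11310 and 3350 to 6394 CPM, and their part in the Myod1 value was not tested. Myog had 0 UMIs there in all 6 mice and could not be tested.

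Myog, the marker of differentiating myoblasts, was listed at 0 in WT mice 1 and 3, and was at 13.5 CPM in WT mouse 2 and at 146, 49.4 and 54.9 CPM in the Aromhum mice. The 4 values came from 44, 235, 114 and 94 UMIs. With each 0 taken as a count, the fitted log2 fold change was 3.74 (edgeR adjusted p = 0.0430) and depends on the prior count, so it is no bound on a fold. With WT mice 1 and 3 set aside it was 2.46, and no test was read there, since 1 WT mouse without a replicate is left. Myog kept its call only without Aromhum mouse 3 among the 6 runs that left out 1 mouse (edgeR adjusted p = 0.0581 to 0.203 in the others), and DESeq2 gave an adjusted p of 0.475. Without WT mouse 2 or 3, or Aromhum mouse 1 or 2, almost no gene of the whole fit passed. No difference in Myog between groups can be taken from these values.

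Of the other 3 genes, Cdh15 was read at 92.0, 60.2 and 65.2 CPM in WT and at 132, 120.1 and 87.6 CPM in Aromhum mice. The lowest Aromhum value lay below the highest WT value, but the Aromhum mouse was higher in each of the 3 pairs, and the log2 fold change was 0.55 ± 0.18 (edgeR adjusted p = 0.128). With the replicate number as a block it was 0.55 with an edgeR adjusted p of 0.0477, which passed. Asb5 varied most between mice of a group, at 2646, 981 and 1842 CPM in WT and 1463, 811 and 1391 CPM in Aromhum, with a log2 fold change of -0.65 ± 0.34 (edgeR adjusted p = 0.301). Asb5 was lower in the Aromhum mouse of each of the 3 pairs, and with the block it had -0.61 (edgeR adjusted p = 0.0551). Fgfr4 was at 124, 101 and 101 CPM in WT and at 92.1, 66.8 and 95.7 CPM in Aromhum mice. The Fgfr4 groups did not overlap but lay close, and the log2 fold change of -0.45 ± 0.19 did not pass (edgeR adjusted p = 0.205), nor did -0.47 with the block (edgeR adjusted p = 0.123).

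Genes of some other cells moved with the groups inside the same sums. The 9 fibroblast markers summed to 631 to 860 CPM in WT and to 1380 to 3747 CPM in Aromhum mice, with none of the 9 at 0. The 9 smooth muscle and pericyte markers stood at 504 to 672 CPM in WT and 1009 to 1439 CPM in Aromhum, none at 0. Of these only Acta2 (mean 168 CPM in WT and 527 in Aromhum) and Tagln (247 and 600) did not overlap. Rgs5 (41.1 and 20.1) and Myh11 (4.53 and 1.64) had lower means in Aromhum. Abcc9, Kcnj8, Notch3, Cspg4 and Pdgfrb had higher means there, with overlap. Glial markers were lower in Aromhum (7.47 to 23.4 CPM against 32.4 to 54.7, 0 of 8 at 0), while mesothelial (8.09 to 17.5 against 1.43 to 3.81 CPM, 0 of 6 at 0) and macrophage markers (18.7 to 36.1 against 10.9 to 18.0 CPM, 1 of 8, Adgre1, at 0) were higher. The summed markers of myonuclei, tenocytes, endothelial, lymphatic endothelial, dendritic-like, T and B cells overlapped between groups. The 12 dissociation stress genes, which are induced in MuSCs by digestion of the tissue, summed to 6576 to 8240 CPM in WT and 3634 to 5406 CPM in Aromhum mice. The part of these genes in the results for Myod1 and Msc was not tested.

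The 2863 cells were clustered again without the 8 genes, which gave 5 sub-clusters with different shares of WT and Aromhum cells (the plot by sub-cluster). These counts are a description, since the genes that define a sub-cluster also differed between groups. Sub-cluster 1 (1072 cells, led by Cxcl2, Rnd1 and Npy) held 531 WT and 541 Aromhum cells, and sub-cluster 2 (615 cells, led by Fos, Socs3 and Jun) held 416 and 199. Sub-cluster 3 (610 cells, led by Arhgap20, Wnt4 and Id2) was almost all WT, with 595 cells against 15. WT mice 1 to 3 gave 32, 397 and 166 of these cells, so that most came from WT mouse 2. Sub-cluster 4 (466 cells, led by the matrix genes Mgp, Col1a1 and Col1a2) was almost all Aromhum, with 445 cells (122, 267 and 56 by mouse) against 21. Sub-cluster 5 (100 cells, led by Cdkn1c, Actc1 and Tnnt2) held 63 WT and 37 Aromhum cells.

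Levels of the 8 genes differed between the sub-clusters to unlike degrees. Pax7 stood at 126 ± 34.2 CPM in sub-cluster 2, over 6 mice, and at 25.4 ± 10.8 in sub-cluster 1, and the lowest mouse of the first (83.8) lay above the highest of the second (46.0). Fgfr4 was also highest in sub-cluster 2, at 154 ± 23.4 CPM. Among sub-clusters 1 to 4, each with 3 or more mice of 20 or more cells, Myf5 ranged from 87.5 ± 7.04 CPM in sub-cluster 3 (3 WT mice) to 152 ± 35.9 in sub-cluster 2, and Cdh15 from 55.0 ± 9.79 in sub-cluster 3 to 129 ± 23.9 in sub-cluster 4 (3 Aromhum mice). Asb5 ran opposite to Pax7, with 564 ± 245 CPM in sub-cluster 2 and 2160 ± 831 in sub-cluster 1. Msc peaked in the WT cells of sub-cluster 3, at 797 ± 256 CPM over 3 mice, and Myod1 was low in the Aromhum cells of sub-cluster 4, at 266 ± 89.3 CPM over 3 mice. Of the Myog UMIs, sub-cluster 5 held 41 in WT mouse 2 and 233, 77 and 94 in the Aromhum mice, from 33, 13, 14 and 10 cells, and Myog stood between 0 and 13.9 CPM, pooled over mice, in the others.

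**Figure D3:**
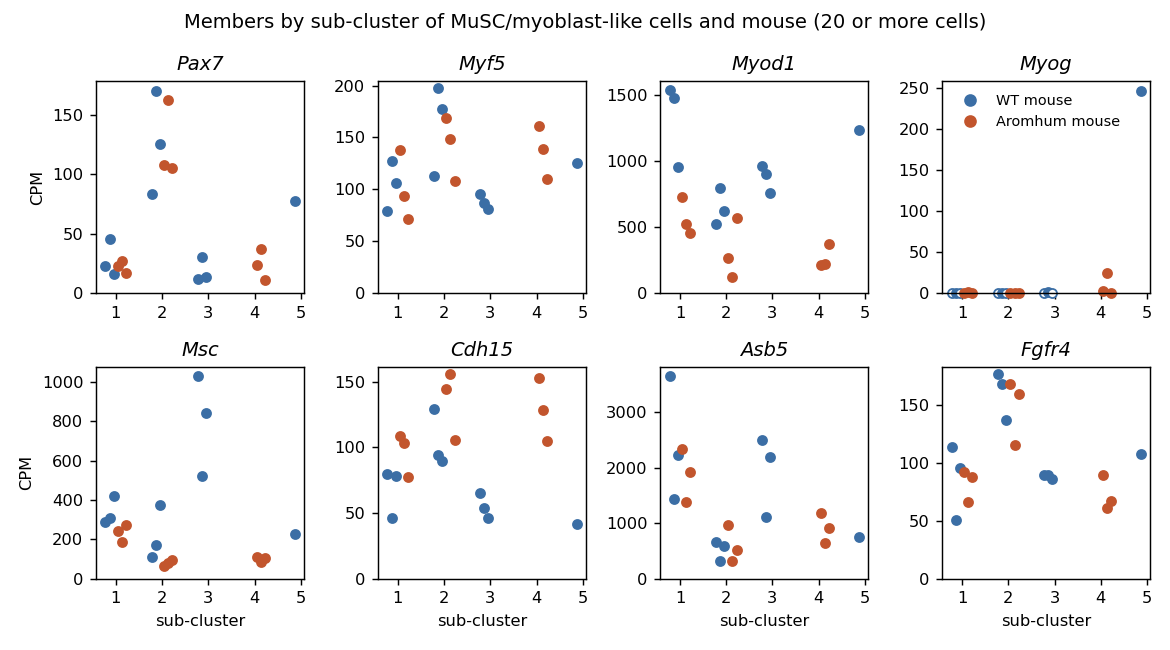
CPM of the 8 genes per mouse in each of the 5 sub-clusters, 1 point for each mouse with 20 or more cells there, on linear axes. Myod1 is lower in each Aromhum mouse than in any WT mouse in sub-cluster 1, sub-clusters 3 and 4 show points of 1 group only, and the 1 Myog point in sub-cluster 5 is from WT mouse 2. Open Myog points are WT mice 1 and 3, where the gene is listed at 0.

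Within sub-cluster 1, Myod1 was at 1534, 1479 and 955 CPM in the WT mice and at 727, 525 and 451 CPM in the Aromhum mice, with no overlap. In sub-cluster 2 it stood at 523, 798 and 622 CPM against 265, 122 and 568 CPM, and there the groups overlapped. Summed over both, the only sub-clusters with 20 or more cells in every mouse, Myod1 fell by 1.06 ± 0.17 on the log2 scale (edgeR adjusted p = 0.0172). Msc stood at 233, 227 and 402 CPM in WT and at 196, 167 and 227 CPM in Aromhum mice in the same cells, with a log2 fold change of -0.55 ± 0.21 (edgeR adjusted p = 0.342). In these cells the fibroblast markers summed to 682 to 782 CPM in WT and 1058 to 1394 CPM in Aromhum, and the stress genes to 7864 to 11142 and 5637 to 6924 CPM. The 12 myonuclei markers stood at 159 to 307 CPM in WT and 90.9 to 135 CPM in Aromhum, and the 8 endothelial markers at 38.0 to 89.7 and 25.8 to 35.7 CPM, so that none of these 4 lists overlapped, and their part in the Myod1 call was not tested. Myog, with 1.34 CPM in Aromhum mouse 2 and 0 elsewhere, was not tested in these cells. Left without sub-cluster 4 alone, the cells gave -0.93 for Myod1 and -1.24 for Msc (edgeR adjusted p = 0.0610 for both).

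Detection per cell was compared after each cell was thinned to 3000 UMIs, which left 2177 cells and set aside 295 WT and 391 Aromhum cells of lower depth. A UMI of Myod1 was found in 50.3%, 47.5% and 45.1% of the cells of the WT mice and in 31.4%, 24.3% and 31.4% of those of the Aromhum mice. Means were 47.7% ± 2.58 and 29.0% ± 4.13 (SD), and without thinning they were 48.7% and 33.8%. Cells with a Myod1 UMI also held fewer of them in Aromhum mice, with 4.41, 3.49 and 4.45 UMIs per positive cell against 7.10, 6.26 and 5.46 in WT. Msc was found in 32.8% ± 11.4 of WT and 18.4% ± 3.07 of Aromhum cells, and Fgfr4 in 27.4% ± 2.37 and 22.7% ± 1.70. Without thinning, Msc stood at 34.5% and 22.3% and Fgfr4 at 35.4% and 32.1%, and the groups overlapped for both. Myog was found in 0.822% of the cells of WT mouse 2 and in 4.55%, 2.95% and 1.34% of those of the Aromhum mice.

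Pax7 was found in 10.2% ± 2.74 of WT and 9.23% ± 1.75 of Aromhum cells, Myf5 in 20.3% ± 0.755 and 20.8% ± 2.92, Asb5 in 79.9% ± 8.43 and 78.4% ± 9.26, and Cdh15 in 19.0% ± 4.35 and 28.1% ± 6.71. These 4 overlapped between groups. Without thinning, Cdh15 was in 28.1%, 21.7% and 24.7% of WT and 41.8%, 34.1% and 31.5% of Aromhum cells, which did not overlap (exact permutation p = 0.1). Endothelial cells thinned in the same way had a UMI of the 8 genes in 0 (Myog) to 0.522% (Asb5) of 9012 cells, at a median of 6126 UMIs before thinning. Among 14 shares compared, 8 of single genes and 6 of pairs, 5 did not overlap between groups, of which Myog and its pair with Myod1 rest on the 0s of WT mice 1 and 3. Each of these 5 had p = 0.1 in the two-sided exact permutation test over mice, the smallest that 3 against 3 allow, and p = 0.28 after Benjamini-Hochberg adjustment over the 14. Detection was not taken over all genes, so the count of 5 has no background to be weighed against.

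Of the 2863 cells at full depth, 1013 (35.4%) showed none of Pax7, Myf5, Myod1 and Myog, 783 showed Myod1 alone, 375 Myf5 alone and 164 Pax7 alone (the plot of detection and co-detection shows the thinned shares). Myf5 with Myod1 was seen in 224 cells, Pax7 with Myod1 in 109, Pax7 with Myf5 in 100 and these 3 together in 58. Myog was seen alone in 10 cells, with Myod1 alone in 19, and with the other 3 in 1 cell. A UMI count of 0 in a cell of this depth does not show that the gene was off.

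Pairs were set against the product of their single shares, which is the share that independent detection would give. In thinned cells, Pax7 and Myf5 were found together in 71 cells, 1.57 times the product, with a range of 0.977 to 2.25 over mice. Pax7 with Myod1 stood at 0.809 times and Myf5 with Myod1 at 0.881 times the product, and both ranges over mice included 1. Myod1 and Myog were found together in 17 cells, 3 of WT mouse 2 and 7, 5 and 2 of the Aromhum mice. Of the Pax7-positive cells at full depth, 36.4% also had Myf5 and 43.2% Fgfr4, against 24.8% and 31.4% of the Pax7-negative cells.

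**Figure D4:**
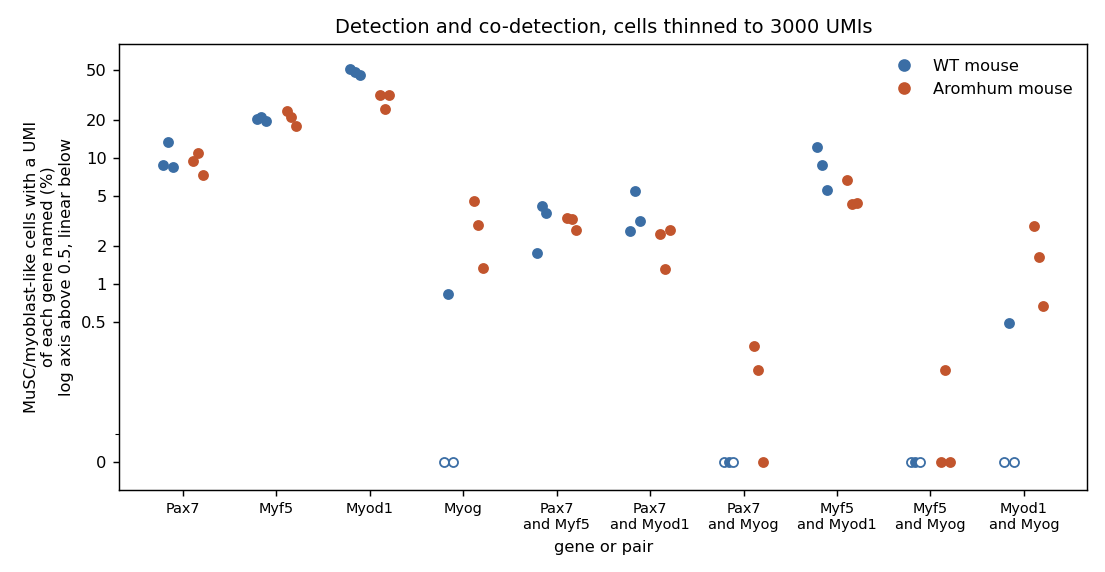
Percent of MuSC/myoblast-like cells, thinned to 3000 UMIs, with a UMI of each of the 4 regulators or of both genes of a pair, 1 point per mouse, on an axis that is logarithmic above 0.5 and linear below. Myod1 shows no overlap between groups, and open points mark WT mice 1 and 3, where Myog is listed at 0.

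Cells with a Myog UMI were few, 37 in the 4 libraries that list the gene. They numbered 7 of 718 cells in WT mouse 2 and 13 of 335, 13 of 566 and 4 of 336 in the Aromhum mice, or 0.975%, 3.88%, 2.30% and 1.19%. The exact Clopper-Pearson 95% intervals, which cover counting error only, were 0.393% to 2.00%, 2.08% to 6.54%, 1.23% to 3.90% and 0.325% to 3.02%, and that of WT mouse 2 overlapped those of Aromhum mice 2 and 3. No share or limit is given for WT mice 1 and 3. The 37 cells had a median of 10990 UMIs, against 4073 in the other 2826, which include all cells of WT mice 1 and 3. In sub-cluster 5, a Myog UMI was in 4 of 33 cells of WT mouse 2 and in 11 of 13, 7 of 14 and 4 of 10 cells of the Aromhum mice. Mymk, which encodes the fusion protein myomaker, is listed above 0 in the libraries of Aromhum mice 1 and 2 only, and had a UMI in 10 of 13 and 5 of 14 of these cells.

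**Figure D5:**
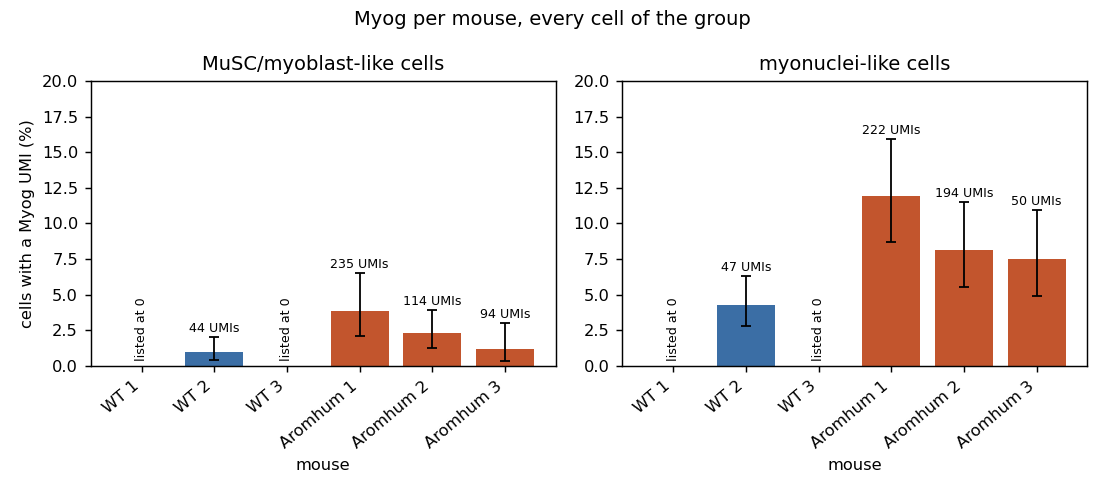
Percent of cells with a Myog UMI in each mouse, in MuSC/myoblast-like cells and in myonuclei-like cells, as bars from 0 with exact 95% intervals and the number of Myog UMIs above. WT mice 1 and 3, where Myog is listed at 0, have no bar, and WT mouse 2 stands at 0.975% and 4.30%.

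In myonuclei-like cells, a Myog UMI was found in 25 of 582 cells of WT mouse 2 and in 40 of 335, 29 of 356 and 24 of 320 cells of the Aromhum mice. With WT mice 1 and 3 taken as 0, Myog did not pass (edgeR adjusted p = 0.190). It passed with the replicate number as a block (edgeR adjusted p = 0.00660) or with no filter on low counts (edgeR adjusted p = 0.00983). Both of these runs also take WT mice 1 and 3 as 0. With those mice set aside 1 WT mouse is left, and no test was read. Myod1 stood at 19.2 to 27.7 CPM in WT and 24.8 to 32.7 CPM in Aromhum myonuclei (log2 fold change 0.13 ± 0.24, edgeR adjusted p = 0.938), and Asb5 and Cdh15 did not pass either (edgeR adjusted p = 0.675 and 0.814). Pax7, Myf5, Msc and Fgfr4, with 2, 13, 41 and 9 UMIs, fell under the filter.

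Of the 4 genes tested in myonuclei-like cells, 0 passed in edgeR, 1 (Myog) had an unadjusted p below 0.05, and 0 passed in DESeq2. The background was 23 of 7506 genes, or 0.306%. Of the 4, 1 (Myog, with its 0s) did not overlap between groups, beside 13.6% of all genes tested. Myog-positive myonuclei-like cells had a median of 7949 UMIs against 1960 in the others, and 28.0% of the 118 had a Myod1 UMI against 7.20% of the others, all of WT mice 1 and 3 among these.

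UMIs were also summed over every barcode of a mouse, which joins the number of MuSC/myoblast-like cells, the RNA in each and the RNA of all other cells. In these sums Myod1, Asb5 and Fgfr4 were lower in Aromhum LAM. Whole libraries held 64958237 to 72876541 UMIs in WT and 92652109 to 111826460 in Aromhum mice. Fewer cells of a type, less RNA per cell and more RNA from other cells cannot be told apart here. Myod1 was at 39.9, 57.6 and 34.2 CPM in WT and 7.97, 9.03 and 10.8 CPM in Aromhum mice, and fell by 2.21 ± 0.21 on the log2 scale (edgeR adjusted p = 0.0165). Asb5 was at 93.4, 59.7 and 81.7 CPM against 29.5, 24.6 and 32.9 CPM, and fell by 1.41 ± 0.20 (edgeR adjusted p = 0.0179). Fgfr4, at 4.27, 6.15 and 4.30 CPM against 1.75, 1.88 and 2.23 CPM, fell by 1.30 ± 0.17 (edgeR adjusted p = 0.0179). None of these 3 had groups that overlapped.

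Pax7 in the same sums was at 1.44, 3.84 and 1.59 CPM in WT and 0.593, 1.01 and 0.777 CPM in Aromhum mice. Its log2 fold change of -1.48 ± 0.43 missed the threshold (edgeR adjusted p = 0.0528), and with the replicate number as a block it was -1.39 and passed (edgeR adjusted p = 0.0215). It also passed when only genes listed in every library were tested, at -1.48 (edgeR adjusted p = 0.0411). Myf5, Myog, Msc and Cdh15 did not pass (edgeR adjusted p = 0.114, 0.203, 0.205 and 0.578). In all, 3 of the 8 genes passed, beside 23.6% of 15334 genes, and 5 of the 8, Myog with its 0s among them, did not overlap, beside 45.7%. All 3 calls were lost without WT mouse 2, WT mouse 3, Aromhum mouse 1 or Aromhum mouse 2, or within the study's limits.

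Outside muscle cells the 8 genes were low, and 15 tests could be made in 5 cell types. In the sums of glial cells, Asb5 was at 49.6, 34.3 and 40.8 CPM in WT and at 13.2, 10.4 and 9.18 CPM in Aromhum mice (log2 fold change -1.97 ± 0.22, edgeR adjusted p = 0.00397), where 1 of 3 genes passed beside 0.5% of all genes tested. In smooth muscle cells and pericytes, Asb5 (-1.43 ± 0.29, edgeR adjusted p = 0.0356) and Msc (-2.05 ± 0.44, edgeR adjusted p = 0.0431) passed, 2 of 3 beside 2.23%. Few cells carried these values. All 394 glial Asb5 UMIs lay in 50 of 2550 cells (42 WT and 8 Aromhum, 1.961%), the smooth muscle and pericyte Asb5 UMIs in 203 of 6189 cells (154 and 49, 3.28%) and the Msc UMIs there in 81 (61 and 20), whereas 77.1% of MuSC/myoblast-like cells had an Asb5 UMI. The glial call was kept in each of the 6 runs without 1 mouse (edgeR adjusted p = 0.00756 to 0.0277), and both others in 2 of 6 (edgeR adjusted p = 0.0238 to 0.139 for Asb5 and 0.00640 to 0.184 for Msc). Asb5 was also lower in the whole-mouse sums, and the part of RNA from muscle cells in these 3 calls was not tested. In fibroblasts 0 of 4 passed in edgeR (1, Myod1, at an unadjusted p below 0.05) beside 12%, in endothelial cells 0 of 3 (0 unadjusted) beside 14.3%, and in tenocytes 0 of 2 (0 unadjusted) beside 1.26%, and DESeq2 was not run there.

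Other genes of the pathway were read in the MuSC/myoblast-like sums from 7 lists, beside 176 of all 8070 genes tested (2.18%) that passed in this fit. The 7 lists gave 9 calls, of which 0 were kept without WT mouse 2, WT mouse 3, Aromhum mouse 1 or Aromhum mouse 2. In those runs almost no gene of the whole fit passed. Without WT mouse 1, 2 calls were kept (Peg3 and Id2), and without Aromhum mouse 3 all 9 were kept. Of 12 satellite cell surface and niche genes, all tested, 1 rose, 1 fell and 10 did not pass (median log2 fold change 0.09, against 0.01 over all genes tested). Chodl fell by 0.79 ± 0.17, from 199 to 249 CPM in WT to 126 to 176 CPM in Aromhum mice (edgeR adjusted p = 0.0472). Cxcr4, the receptor for the chemokine CXCL12, rose by 1.10 ± 0.22, from 22.4 to 31.6 CPM to 38.5 to 74.2 CPM (edgeR adjusted p = 0.0395). Of 12 quiescence and Notch genes, 0 rose and 2 fell (median -0.44), the imprinted gene Peg3 by 1.14 ± 0.18 (edgeR adjusted p = 0.0287) and the growth arrest gene Gas1 by 1.18 ± 0.22 (edgeR adjusted p = 0.0320).

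Of 16 myogenic cofactors, 13 were tested, 0 rose and 1 fell (median 0.02). That gene was Id2, which encodes an inhibitor that holds basic helix-loop-helix factors off DNA, and it fell by 2.45 ± 0.51 from 230, 1124 and 506 CPM to 82.2, 117 and 166 CPM (edgeR adjusted p = 0.0430). Id2 is also among the genes that lead sub-cluster 3, where most cells came from WT mouse 2. Of 18 differentiation and fusion genes, 16 were in the table, 10 were tested, 1 passed with higher values and 0 fell (median 0.12). Actc1, the cardiac actin that is also made in young muscle cells, is listed at 0 in the 3 whole WT libraries and had 135, 26 and 35 UMIs in the Aromhum mice (edgeR adjusted p = 0.0395). It was found in 31, 35 and 21 barcodes of the whole Aromhum libraries, close to the fewest that genes are listed with, so its call was not read as a rise. All of its UMIs in these sums lay in sub-cluster 5.

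No gene passed in edgeR among the 3 of 10 myoblast cycling genes that were tested (median -0.11), where Pcna had a log2 fold change of -0.44 and Tyms of 0.43 (edgeR adjusted p = 0.175 and 0.549). Mki67 had 0 to 5 UMIs per mouse in these sums, Cdk1 1 to 4 and Birc5 0 to 4. A cluster led by Ube2c, Birc5 and Top2a, described below, lay outside them. Whether cycling of myoblasts differed between groups can therefore not be read from this list. None of the 7 of 10 growth factor genes tested passed either (median 0.10), where Igfbp5, an IGF-binding protein, was at 389 to 581 CPM in WT and 574 to 2523 CPM in Aromhum mice (log2 fold change 1.61 ± 0.40, edgeR adjusted p = 0.0676) and Igf1 had 0.92 ± 0.32 (edgeR adjusted p = 0.139). Of the 12 dissociation stress genes, 0 rose and 3 fell, namely Fos by 1.17, Fosb by 0.71 and Hspa1a by 0.92 on the log2 scale, and all 12 had a negative log2 fold change (median -0.91).

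Genes most like the 4 regulators were found over 19 sums per sub-cluster and mouse, among 4544 genes, by Pearson's r of log2(CPM + 1). The sums share mice and sub-clusters, so r is a description. Pax7 was most like Tob1 (r = 0.93), Cavin2 (0.93) and Jund (0.92), and Tob1 is among the genes that lead sub-cluster 2. Myf5 had weaker partners, Jup (0.77), Hoxc8 (0.76) and Gsk3b (0.76). Myod1 was most like Plaur (0.90), Tpm3 (0.88) and Alyref (0.87), while Myog was 0 in 14 of the 19 sums and over 3 CPM in 2, so that its partners Dbi (0.88), Tpm2 (0.84) and Bin1 (0.84) rest on those 2. Among the 8 genes, Pax7 went with Myf5 (0.67) and against Asb5 (-0.81), while Myod1 went with Msc (0.70) and against Cdh15 (-0.80).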

How the data were processed

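UMI counts per gene and barcode were deposited by the authors as raw counts, not normalized, made with Cell Ranger 3.0.2 on mm10 with human CYP19A1 added. Genes found in few barcodes of a library stand at 0 there, which was read from the values, and 14132 of the 16494 genes are listed above 0 in all 6 libraries. Groups came from the GEO titles. The 8 genes, the lists and the tests were chosen with earlier results of these data known, and the markers with them. All 63647 barcodes were kept, scaled to 10000, reduced to 2000 variable genes without the 8 genes and 30 components, and clustered by Leiden (leidenalg 0.10.2, resolution 0.8, 20 neighbors). A cluster took the name of its best-scoring marker list only if 3 or more of its markers were each found in 10% of cells or more. It also needed a score of at least 1, and top genes without more markers of another type. Shallow clusters also needed an own marker among their top genes. In all, 7085 barcodes were given no cell type and entered no test by cell type. Doublets were scored against simulated pairs and kept. Of the barcodes, 0.658% to 2.50% were marked, 0 of them MuSC/myoblast-like. The same thresholds marked only 12.1% to 29.9% of the simulated pairs, so most doublets could go unmarked.

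Counts were summed per mouse and tested with edgeR 4.0.16 (TMM, filterByExpr, glmQLFit, glmQLFTest) with adjustment over all genes tested at 0.05, and DESeq2 1.42.0 as an alternative. The SE is the log2 fold change divided by the square root of F. Levels are CPM of the sum. On simulated data of the 8070 genes, 63 of 100 2-fold and 97 of 100 4-fold changes were recovered. Shares used exact permutation over mice. The study took cells as replicates in a Wilcoxon test, which was not used. Per the study's methods, 1 WT and 1 Aromhum littermate were processed on each date. Deviations from the group mean correlated at r = 0.20, 0.10 and 0.13 over 8070 genes for WT and Aromhum mice with the same number. The other pairs stood at -0.12 to -0.01. Deviations cancel within a group, so these negative values largely follow from the positive ones and are no separate support. The labels give no date. That the numbers pair the mice is therefore an assumption, on which the replicate block and the counts of pairs rest. Named genes were the 8, every list gene that passed (or the top 2 of a list with none), and the 3 genes most like each regulator. The mixed cluster, the block of columns and the leaving out of sub-clusters were chosen after seeing the data. Total UMIs per library of 64958237 to 111826460 set the depth, with 1606811 to 3270983 in MuSC/myoblast-like cells.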

Additional observations from a re-analysis of the deposited data

How the results depend on the processing

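Of 623 values of 43 results under the alternatives, 470 kept their side of the threshold or stayed within a set range of the main value. A further 90 lost and 7 gained a call, 56 moved beyond that range, and 0 called values changed sign. Values that were not called could change sign within the 470. Myf5 in MuSC/myoblast-like cells, for example, went from 0.04 to -0.30 in the sub-clusters present in every mouse. The 176 genes called in MuSC/myoblast-like cells became 274 with DESeq2, 515 with no filter on low counts, 269 at a Leiden resolution of 0.4, 44 within the study's limits, 6 with no upper limit on genes, 319 with the mixed cluster, 297 in the block of columns of the deposited table, 34 in the sub-clusters present in every mouse and 22 without the sub-cluster led by Mgp and Col1a1. With the replicate block, 513 genes passed, 1 of the 8 genes passed in myonuclei-like cells instead of 0, and of the calls on the 8 genes it changed those given above (Cdh15, Myog in myonuclei-like cells, Pax7 in whole-mouse sums) and no other. Leaving out 1 mouse gave 0 to 740 genes, the 0 without Aromhum mouse 1 or 2, 1 without WT mouse 2 or 3 and 740 without Aromhum mouse 3, and 0 to 3 of the 8 genes. Of the 8 genes, 1 was called within the study's limits (Myod1), 1 with no upper limit on genes (Myod1), 1 in the sub-clusters present in every mouse (Myod1) and 1 without the sub-cluster led by Mgp and Col1a1 (Myog, with 2 WT mice listed at 0). In myonuclei-like cells 1 was called with no filter on low counts, and 0 in each run without 1 mouse. With only genes listed in every library, 174 genes passed in MuSC/myoblast-like cells, with Myod1 and Msc among the calls. With WT mice 1 and 3 set aside, 1 WT mouse without a replicate is left, so no calls are given for that setting. In whole-mouse sums 0 of the 8 genes were called within the study's limits and 0 to 3 without 1 mouse. The difference in the share of MuSC/myoblast-like cells was -0.486 points within the study's limits, -0.332 with no upper limit on genes and -2.54 to -1.53 without 1 mouse. Of the 14 detection shares, 3 did not overlap within the study's limits, 1 with no upper limit on genes and 5 to 9 without 1 mouse. No share over all genes was taken beside these counts. The cause of these changes was not tested. Fewer cells enter under the study's limits (413), and with 3 mice per group single genes at low UMI counts, such as Myog, rest on few cells. Both settings on listed genes, and the runs without 1 mouse for list genes and other cell types, were chosen after seeing the data.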

Other observations

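Msc outside MuSC/myoblast-like cells was read in a fibroblast cluster of 4444 cells led by Pnoc, Ren1 and Nppc, where 23.1% of cells, pooled over mice, had an Msc UMI. Its level there was 13.0, 3.38 and 6.23 CPM in the WT mice and 39.3, 21.2 and 52.2 CPM in the Aromhum mice, so that each Aromhum mouse lay above all WT mice, the reverse of the order in MuSC/myoblast-like cells. In the largest fibroblast cluster, of 7426 cells led by Abca8a, Gsn and Myoc, Msc stood at 18.8 to 29.1 CPM in WT and 27.8 to 29.6 CPM in Aromhum mice. These clusters were picked after their values were seen, and the differences were not tested.

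A cluster of 408 cells led by the cycling genes Ube2c, Birc5 and Top2a was given no cell type, and entered only the whole-mouse sums and the barcodes over which shares were taken. Pooled over the 123 WT and the 285 Aromhum cells, Myod1 stood at 76.0 CPM in WT and 22.4 in Aromhum, Asb5 at 113 and 35.3, and Msc at 55.0 and 31.4. Cdh15 stood at 6.05 CPM in WT and 20.9 in Aromhum, Myf5 at 3.30 and 8.04, Pax7 at 2.20 and 2.19, and Fgfr4 at 7.71 and 7.31, while Myog was found in 6 cells. UMIs were uneven between mice of a group, with 26, 93 and 19 of Myod1 and 1, 7 and 3 of Cdh15 in 16, 73 and 34 WT cells, and 8, 84 and 0 of Myod1 and 54, 30 and 2 of Cdh15 in 117, 80 and 88 Aromhum cells. The cluster was picked after its values were seen, and no difference was tested.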
